A study of Mus musculus with 20 samples.

Results

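Main population cells of skeletal muscle were compared with main population cells of bone marrow, gene by gene. The comparison used the 5 arrays titled Muscle MP 1 to 5 and the 5 titled Bone marrow MP 1 to 5, chosen by title, which are 10 of the 20 arrays of the series. All cells came from adult mice of the inbred strain C57BL/10SnJ, and the labels name no further genotype, treatment, sex, age in weeks or sort gate. The other 10 arrays hold the side population (SP) of each tissue, a rare fraction known for pumping out the DNA dye Hoechst. The main population (MP) is what remains when that fraction is set apart, so it is a mixture of the cells that keep the dye.

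Dissociated skeletal muscle is known to yield fibroblasts, capillary endothelium, pericytes, Schwann cells of nerve branches, resident macrophages and satellite cells, the stem cells of the fibre. Bone marrow is the site of adult blood formation, and most of its nucleated cells are maturing neutrophils, red cell precursors, B lineage cells and monocytes. An array measures RNA of the whole sorted pool. A lower signal can therefore mean fewer cells of a type or less RNA per cell, and these cannot be told apart. Whether the 5 samples of a tissue were 5 mice or 5 sorts is not in the labels. The p-values therefore reflect the spread among these arrays alone, and part of it may be technical.

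Values are log2 signals after quantile normalization, with a floor at log2 6.71 below which levels were not read. A probe set is the group of probes that reads 1 transcript, and 10310 probe sets passed the filter on low signal. Those with a single gene symbol covered 7295 named genes. Before normalization the median signal of the 10 MP arrays ran from 318 to 422. Pearson correlations across probe sets were 0.969 to 0.981 between muscle MP arrays, 0.964 to 0.981 between bone marrow MP arrays and 0.722 to 0.753 between the tissues. GAPDH is measured at both ends of its RNA as a sign of integrity. Its 3′ signal exceeded its 5′ signal by 2.66 ± 0.62 log2 units in muscle MP and 2.67 ± 0.72 in bone marrow MP (SD, n = 5; exact permutation test, two-sided, p = 0.992, and 0.992 after adjustment for 3 controls). The same gap for beta-actin was 1.44 ± 0.43 against 0.98 ± 0.28 (exact permutation p = 0.0873, adjusted p = 0.262), and spiked-in transcripts read 11.97 ± 0.20 against 12.12 ± 0.30 (exact permutation p = 0.357, adjusted p = 0.536).

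Muscle MP cells carried far more RNA of collagens, proteoglycans, endothelial and mural cell genes, and far less of neutrophil granule, B lineage and pan-leukocyte genes, than bone marrow MP cells. Of 10310 probe sets, 2151 were higher in muscle MP (20.9%) and 2644 were lower (25.6%) at an adjusted p under 0.05 by limma with Benjamini-Hochberg adjustment. The difference was at least 2-fold for 1513 higher and 1412 lower probe sets, and at least 32-fold for 120 and 57. For 4095 probe sets (39.7%) the 5 muscle and 5 marrow values did not overlap, and 3856 of these were among the calls. All 5 marrow arrays lay at the floor for 264 of the higher probe sets, and all 5 muscle arrays for 121 of the lower ones, so their differences are lower bounds, written "at least". The median log2 difference over all probe sets was -0.14, and the median SD between arrays of a group was 0.28 in muscle and 0.29 in marrow.

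The largest rise was in Col1a2, which encodes a chain of type I collagen, the main fibre of connective tissue. Its log2 signal was 15.65, 15.78, 15.37, 16.07 and 15.46 on muscle MP arrays 1 to 5, and all 5 bone marrow MP arrays lay at the floor. The difference was at least 8.95 ± 0.29 (log2 ± SE, adjusted p = 1.5e-16), which is at least 496-fold. A second Col1a2 probe set, with a suffix for less specific probes, did not pass (-0.36 ± 0.20). It was not dim, with a mean of 10.72 over all 20 arrays. Sparc, a collagen-binding matrix protein, read 15.27, 14.92, 15.50, 15.48 and 15.29 in muscle and lay at the floor on every marrow array (at least 8.58 ± 0.33, at least 383-fold). The largest rises and falls were ranked only among probe sets without overlap between the tissues, so the lack of overlap was fixed by the choice.

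Col4a1, a chain of basement membrane collagen, read 15.16 to 15.59 in muscle MP. In marrow it read 6.71, 7.91, 7.21, 6.71 and 6.71, a difference of 8.26 ± 0.30 (adjusted p = 7.3e-16). The marrow values of arrays 2 and 3 stood above the floor, and both lay far below the lowest muscle value. Further large rises were Cavin2, a caveola coat protein (8.20 ± 0.44), Col3a1, the type III collagen chain (8.16 ± 0.26), Nrep (8.14 ± 0.30), the proteoglycan Dcn, decorin (7.92 ± 0.27), and the water channel Aqp1 (7.89 ± 0.35). Cav1, the main caveola protein, was higher by 7.88 ± 0.38, the myelin protein gene Pmp22 by 7.87 ± 0.37, and Timp3, a matrix-bound protease inhibitor, by 7.87 ± 0.32. A second, dimmer Cav1 set was higher by 0.98 ± 0.27. The peptide-processing enzyme Cpe (7.77 ± 0.28), the growth factor carrier Igfbp3 (at least 7.65 ± 0.26), the endothelial cadherin Cdh5 (7.60 ± 0.33) and the collagen chaperone Serpinh1 (7.23 ± 0.28) followed. The Cpe probe set carries a suffix for shared or less specific probes, as does the other Cpe set (7.20 ± 0.27). Kitl, the ligand of the stem cell receptor Kit, was higher by at least 7.14 ± 0.23. The imprinted gene Peg3 (7.10 ± 0.31), the chemokine scavenger Ackr3 (7.04 ± 0.17), the matrix protein Postn (6.88 ± 0.23) and the homeobox gene Meox2 (6.76 ± 0.16) completed the 20 largest. Other sets of Col3a1 (5.87 ± 0.20 and 5.86 ± 0.26) and Peg3 (3.68 ± 0.18 and 2.03 ± 0.22) were higher by less.

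The largest falls were led by genes of neutrophil granules. Lcn2, an iron-trapping protein of neutrophil granules, read 16.03, 15.82, 16.07, 16.02 and 15.80 in bone marrow MP and 6.71, 7.91, 6.71, 6.71 and 6.87 in muscle MP. It fell by 8.96 on the log2 scale (SE 0.57, adjusted p = 9.5e-12), a 499-fold difference. A second Lcn2 probe set, with a suffix for less specific probes, differed by only -1.95 ± 0.22. Ltf, lactoferrin of the same granules, read 15.66 to 16.00 in marrow and 6.97, 8.83, 6.71, 6.71 and 7.04 in muscle (-8.65 ± 0.68). For both genes muscle array 2 stood above the other muscle arrays.

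Wfdc21, a small secreted protein, fell by 8.21 (SE 0.44), and Ngp, a neutrophil granule protein, by 8.15 (SE 1.07). The granule proteases Mmp9 and Mmp8 differed by -7.83 ± 0.48 and -7.76 ± 0.69. The other Mmp9 set, with a suffix for shared or less specific probes, differed by -4.98 ± 0.28. S100a9 and S100a8, the calcium-binding pair that fills the neutrophil cytoplasm, differed by -7.66 ± 0.72 and -7.24 ± 0.63, and the antimicrobial peptide gene Camp by -7.20 ± 0.75. Fpr2, a chemoattractant receptor (-7.40 ± 0.34), Ifitm6 (-7.40 ± 0.52), the chitinase-like Chil3 (-7.29 ± 0.63) and Ly6g, the surface antigen used to sort mouse neutrophils (-7.18 ± 0.43), fell as well. Chil1 was lower by 6.90 or more (SE 0.39), since every muscle array was at the floor. For the same reason Pglyrp1, a bacterial cell wall binder, was lower by 6.45 or more (SE 0.44). That probe set carries a suffix for shared or less specific probes, and the other Pglyrp1 set differed by -5.33 ± 0.36. Mpo, the peroxidase of primary granules (-6.77 ± 0.36), Slfn4 (-6.56 ± 0.44), the arginase Arg2 (-6.49 ± 0.34), the interleukin-1 antagonist Il1rn (-6.30 ± 0.40) and the integrin chain gene Itgb2l (-6.26 ± 0.38) completed the 20 largest falls. The Mpo probe set carries such a suffix too, and the other Mpo set differed by -2.97 ± 0.19. A second, dimmer Arg2 set differed by -0.77 ± 0.29.

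**Figure D1:**
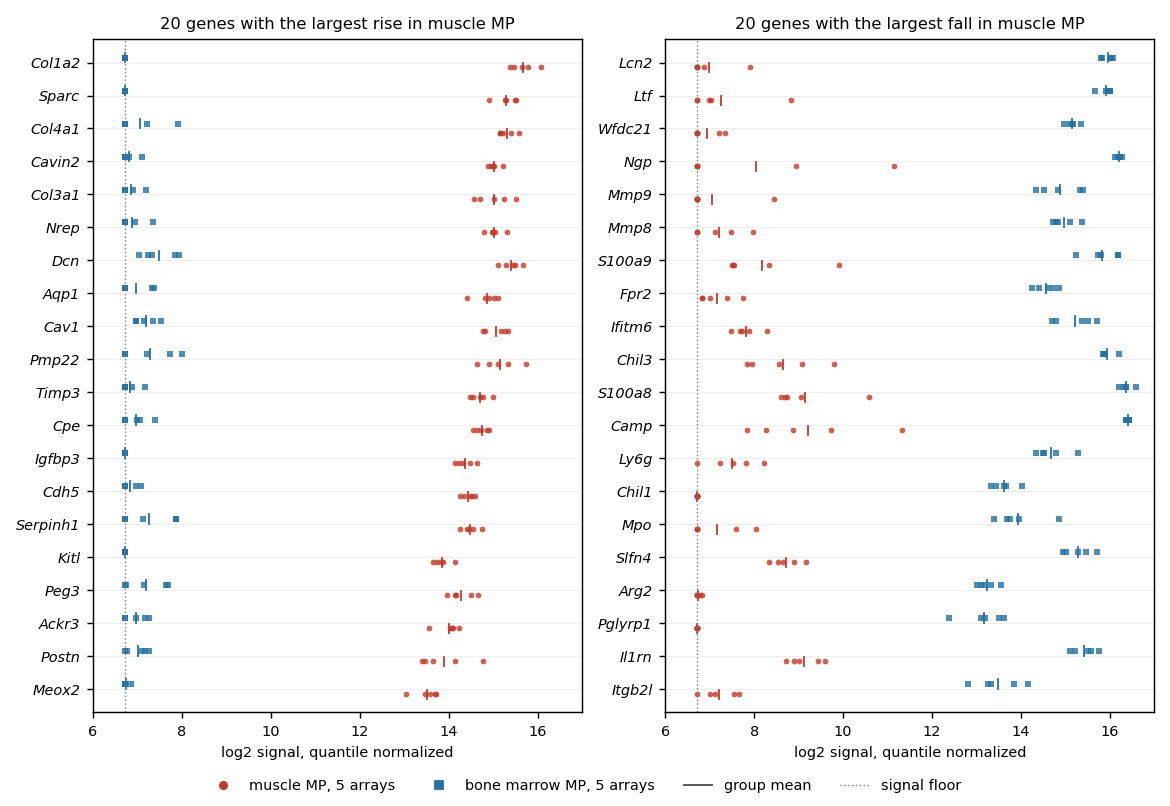
Log2 signal (horizontal axis, quantile normalized) of the 20 genes with the largest rise (left) and the largest fall (right) in muscle MP, with each array as a point (muscle MP circles, bone marrow MP squares), group means as short bars and the floor as a dotted line. The groups do not overlap for any gene because genes with overlap were left out of the choice. Several neutrophil genes spread over more than 2 log2 units among the muscle arrays, as Ngp with 6.71 to 11.14, while the marrow values of Ngp lie between 16.10 and 16.28.

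The 150 bases before the annotated start of the 3 largest rises and 3 largest falls with an entry in the promoter table are shown because these genes sit at the 2 ends of the comparison. They come from RefSeq, build GRCm38.p6, and capitals mark matches on either strand to TATAAA (the TATA box), CCAAT (the box named after it), GGGCGG (the Sp1 or GC box), TTNNGNAA (a loose form of the C/EBP site) or GAGGAA (the core of PU.1 sites). Wfdc21 had no entry, and Ngp took its place.
Col1a2, chr6:4505468-4505617, plus strand: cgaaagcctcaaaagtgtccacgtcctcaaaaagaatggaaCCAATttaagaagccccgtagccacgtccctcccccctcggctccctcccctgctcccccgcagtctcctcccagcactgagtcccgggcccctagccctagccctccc
Sparc, chr11:55420081-55420230, minus strand: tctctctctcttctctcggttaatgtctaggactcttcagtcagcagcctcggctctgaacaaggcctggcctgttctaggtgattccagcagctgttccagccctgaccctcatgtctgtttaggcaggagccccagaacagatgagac
Col4a1, chr8:11312827-11312976, minus strand: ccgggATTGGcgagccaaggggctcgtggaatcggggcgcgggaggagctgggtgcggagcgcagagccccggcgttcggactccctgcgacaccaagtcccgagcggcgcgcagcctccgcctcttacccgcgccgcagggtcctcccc
Lcn2, chr2:32387740-32387889, minus strand: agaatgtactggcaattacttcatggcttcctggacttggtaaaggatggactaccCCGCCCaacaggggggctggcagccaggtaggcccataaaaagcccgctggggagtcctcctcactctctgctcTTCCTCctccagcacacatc
Ltf, chr9:111019142-111019291, plus strand: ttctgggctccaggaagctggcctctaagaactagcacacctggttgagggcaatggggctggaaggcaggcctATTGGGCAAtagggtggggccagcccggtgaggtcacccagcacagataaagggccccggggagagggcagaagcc
Ngp, chr9:110419658-110419807, plus strand: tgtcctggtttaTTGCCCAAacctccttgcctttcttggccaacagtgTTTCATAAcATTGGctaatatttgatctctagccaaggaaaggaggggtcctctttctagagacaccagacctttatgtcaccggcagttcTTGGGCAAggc

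TTNNGNAA matched 3 times in the Ngp window and once in that of Ltf, where it overlaps a CCAAT match, and 22.7% of 32467 promoters hold it in a window of the same length. CCAAT, found in Col1a2, Col4a1, Ltf and Ngp, occurs in 24.4% of promoters. GGGCGG and GAGGAA each matched in Lcn2 and occur in 28.9% and 14.6% of promoters. TATAAA matched none of the 6 windows and occurs in 7.55% of promoters. A match describes letters in a window, not binding.

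The genes were then described by 40 lists of known roles, with the brightest probe set standing for each gene. By that measure 1718 of 7295 genes were higher in muscle MP (23.6%) and 1853 were lower (25.4%), with a median log2 difference of -0.10. These shares are the background for every count of list members below, and no list was tested as a set.

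**Figure D2:**
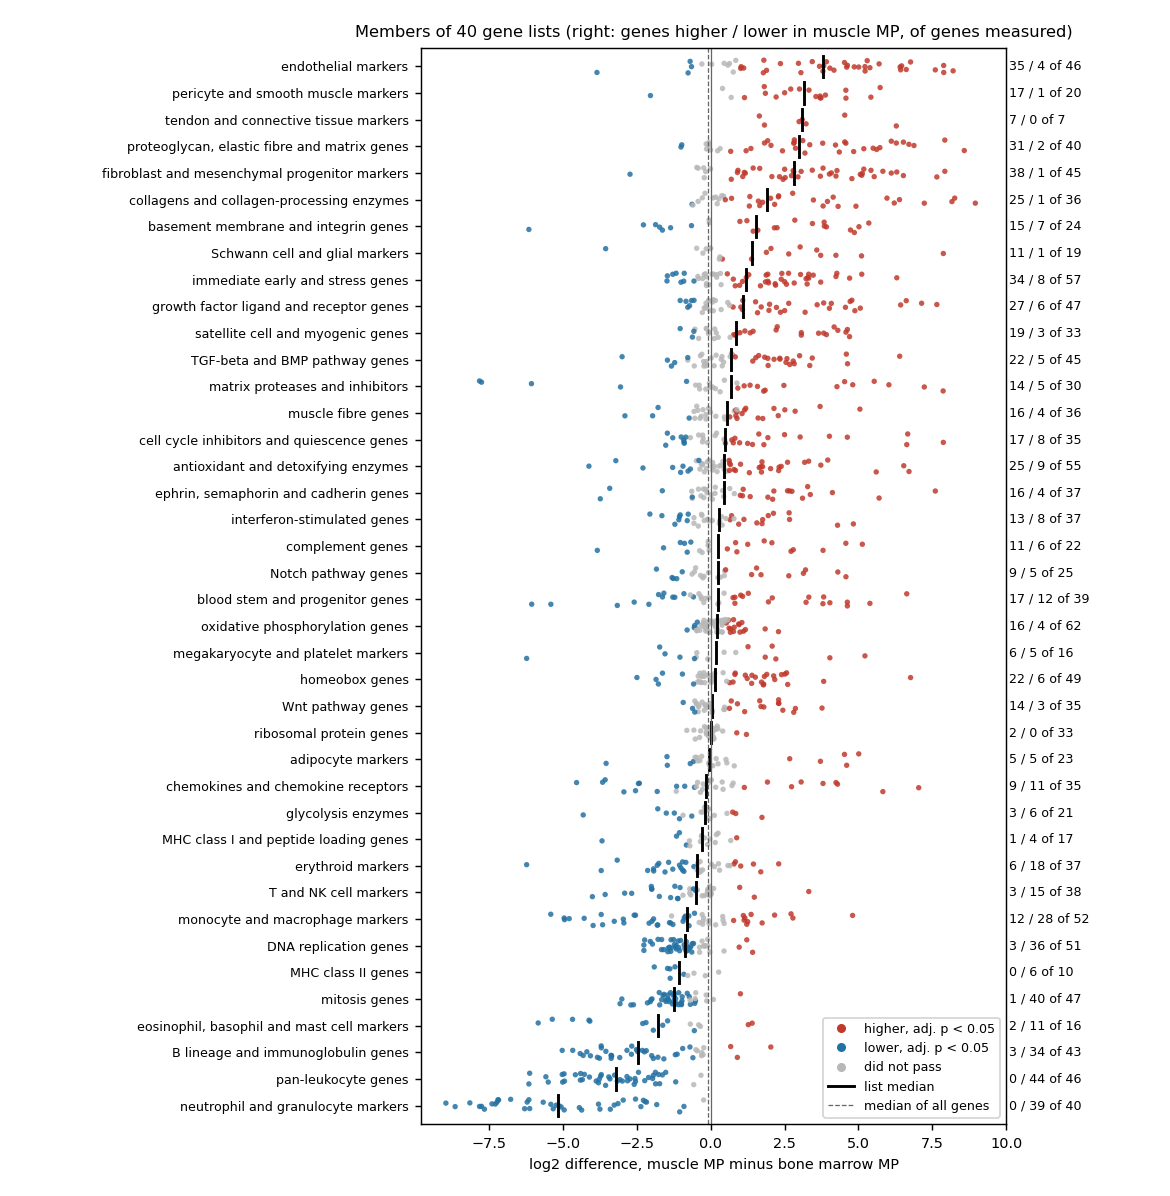
Log2 difference between muscle MP and bone marrow MP (horizontal axis) for each measured member of 40 gene lists (rows, ordered by median), with members that passed the test in red (higher) or blue (lower) and the rest in grey. The black bar is the list median and the dashed line the median of all genes, -0.10. Endothelial markers have the highest median (3.81) and neutrophil and granulocyte markers the lowest (-5.18).

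Collagens and the enzymes that fold and crosslink them were higher in muscle MP for 25 of 36 measured genes, and 1 was lower. The list median was 1.89. Their summed signal was 17.8-fold higher in muscle, at 260834 to 370665 units against 14937 to 19536. Col1a1 read 15.91, 15.63, 15.12, 15.62 and 15.07 in muscle and 10.64, 10.52, 10.13, 10.79 and 10.69 in marrow, a difference of 4.91 ± 0.34. It thus stood well above the floor on all marrow arrays, unlike the Col1a2 probe set with the largest rise. The second Col1a2 set averaged 10.72 over all 20 arrays, so this contrast is stated for the first set alone. Col5a2, a chain of the minor fibrillar collagen V, was higher by 6.39 ± 0.22. Col10a1, the collagen of growth plate cartilage, was the exception, at -0.63 ± 0.20, a call that was lost without further normalization (-0.44).

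Secreted proteoglycans, elastic fibre and other matrix genes were higher for 31 of 40 and lower for 2, with a median of 2.99. Lum, the collagen-spacing proteoglycan lumican, read 14.42, 14.16, 14.21, 14.70 and 13.97 in muscle MP and 7.60 to 8.04 in marrow (6.52 ± 0.30). Sparcl1, a relative of Sparc, was higher by at least 6.71 ± 0.22. Tgfbi (-1.01 ± 0.27), an adhesive matrix protein, and Ncan (-0.98 ± 0.24), a proteoglycan of brain matrix, were lower. Fn1, fibronectin, read 11.56 ± 0.22 against 11.56 ± 0.28 (SD, n = 5), a difference of -0.01 with a 95% interval from -0.51 to 0.50.

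All 9 laminin and nidogen genes, which build basement membranes, were higher in muscle MP, while integrin chains, their receptors and those of leukocytes, went both ways. The laminin chains Lama2 (at least 5.35 ± 0.17), Lamb2 (at least 5.02 ± 0.26), Lama4 (4.86 ± 0.24), Lamb1 (4.73 ± 0.25) and Lama5 (3.92 ± 0.33) were among the largest rises. Of 15 integrin chains 6 were higher, namely Itga6 (3.84), Itgb5 (3.44), Itgb4 (2.25), Itgav (1.59), Itgb1 (1.44) and Itga7 (0.99), and 7 were lower, led by Itgb2, the chain shared by leukocyte integrins (-6.16 ± 0.28). Its partner Itgam, the CD11b chain, was at the floor on every muscle array, so it was lower by 2.28 or more (SE 0.16), and Itgal (-1.73 ± 0.25), Itgax (-1.36 ± 0.23), Itga4 (-1.87 ± 0.30), Itgb7 (-1.64 ± 0.25) and Itga3 (-0.65 ± 0.21) were lower too. Itga3 did not pass without further normalization (-0.52) or by its other probe set (-0.09 ± 0.30). In all, 15 of 24 were higher.

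Fibroblast and mesenchymal progenitor markers were higher for 38 of 45 genes and lower for 1, with a median of 2.81. Pdgfra, the receptor that marks fibro-adipogenic progenitors of muscle, read 11.59, 12.47, 11.17, 11.78 and 11.85 in muscle MP and 7.49, 6.71, 8.21, 8.51 and 7.52 in marrow (4.08 ± 0.30, adjusted p = 1.2e-10). A second Pdgfra probe set did not pass (-0.51 ± 0.23). Mfap5, an elastic microfibril protein, was higher by 6.11 ± 0.25. Cd44, a hyaluronan receptor that leukocytes carry as well, was the exception (-2.73 ± 0.24). All 7 measured tendon and connective tissue markers were higher, among them Fmod, fibromodulin (at least 6.28 ± 0.30), Kera, keratocan (4.54 ± 0.29), and Scx, the tendon transcription factor scleraxis (3.10 ± 0.51).

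Endothelial markers had the highest list median, 3.81, with 35 of 46 higher and 4 lower. Cdh5 read 14.24, 14.35, 14.58, 14.49 and 14.52 in muscle and 6.71, 6.71, 7.08, 6.97 and 6.71 in marrow. Kdr, the main receptor for vascular endothelial growth factor, read 15.08, 14.64, 14.80, 14.54 and 14.44 in muscle against 7.63 to 8.55 (6.62 ± 0.25). Tek, the angiopoietin receptor, read 11.81 to 12.51 in muscle and was at the floor on all marrow arrays (at least 5.39 ± 0.26). Each muscle array stood above each marrow array for all these receptors. Against the list, Bmx, a kinase of artery and myeloid cells (-3.85 ± 0.26), and the gap junction gene Gja5 (-0.77 ± 0.19) were lower. Apln, a peptide gene, was lower as well (-0.65 ± 0.25), but not when muscle array 3 or 4 or marrow array 1 or 5 was left out (-0.61 to -0.50) or without further normalization (-0.51). Pecam1, CD31, which leukocytes and platelets also carry, read 9.93, 10.47, 9.59, 9.38 and 9.46 in muscle and 10.61, 10.26, 10.27, 10.27 and 10.91 in marrow. The groups overlapped, and the difference of -0.70 ± 0.27 (adjusted p = 0.0397) did not pass when muscle array 3, 4 or 5 or marrow array 1 or 5 was left out (-0.66 to -0.59) or without further normalization (-0.57). The Pecam1 call was also lost with the floor at the 10th percentile (adjusted p = 0.0531) and with no filter (adjusted p = 0.0609).

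Pericyte and smooth muscle markers were higher for 17 of 20, with a median of 3.16. Myh11, smooth muscle myosin, read 11.88, 12.64, 11.33, 12.66 and 13.72 in muscle and was at the floor in marrow (at least 5.73 ± 0.45). The channel gene Kcnj8, a pericyte marker, was higher by at least 5.42 ± 0.36, and Notch3, the mural cell Notch receptor, by 4.58 ± 0.38. Acta2, smooth muscle actin, read 13.42 to 14.72 against 10.02 to 11.20 (3.56 ± 0.34), so marrow also gave a signal well above the floor. Cnn2, a calponin of non-muscle cells, was lower (-2.04 ± 0.34).

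Schwann cell and glial markers were higher for 11 of 19 and lower for 1, with a median of 1.38. Pmp22, a protein of peripheral myelin that other cells express too, read 15.74, 15.12, 14.64, 15.34 and 14.90 in muscle and 7.74, 6.71, 6.71, 7.21 and 8.01 in marrow. Sox2, a transcription factor of glial and other progenitors, read 10.17 to 11.89 in muscle and lay at the floor in marrow (at least 4.24 ± 0.48). The membrane glycoprotein gene Gpm6b (5.10 ± 0.46) and Egr2, a regulator of myelination (3.72 ± 0.27), were higher. Mbp, myelin basic protein, was the lower member by its brighter probe set, while its other probe set went the opposite way.

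Satellite cell and myogenic genes were higher for 19 of 33 and lower for 3, with a median of 0.85. Myf5, a transcription factor of the muscle lineage, read 9.99, 11.05, 11.50, 11.30 and 10.60 in muscle MP, and every marrow array was at the floor (at least 4.18 ± 0.26). Fgfr4, a receptor of myoblasts, read 10.21 to 10.87 (at least 3.82 ± 0.15), and Calcr, the calcitonin receptor of quiescent satellite cells, read 10.36 to 10.90 (at least 3.92 ± 0.18), also against the floor. Cdh15, M-cadherin, was higher by 1.33 ± 0.22, with 1 marrow array overlapping the lowest muscle array. Myod1, the regulator of activated myoblasts, read 9.35 ± 0.10 against 9.23 ± 0.21 (SD, n = 5), a difference of 0.12 ± 0.19 that did not pass (adjusted p = 0.65). Dag1, dystroglycan (4.70 ± 0.23), and Hey1, a Notch target (4.30 ± 0.37), were higher too. Hgf, a factor that wakes satellite cells, was lower by 1.04 or more (SE 0.14), and Myl4, an embryonic myosin chain, differed by -0.62 ± 0.20, which did not pass without further normalization (-0.50), and by -1.70 ± 0.18 on its other probe set. Sdc3, also a proteoglycan of satellite cells, was lower (-0.57 ± 0.23), but this call was lost in leaving out muscle array 1, 4 or 5 or marrow array 1, 2, 4 or 5 (-0.58 to -0.44), without further normalization (-0.48) and with the 10 MP arrays alone (-0.57, adjusted p = 0.0646). It was also lost with the floor at the 10th percentile (adjusted p = 0.0718) and a pseudocount (adjusted p = 0.0974). Pax7 was not analysed here.

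Muscle fibre genes, whose source in the sorted pool was not tested, were higher for 16 of 36 and lower for 4, with a median of 0.56. Acta1, skeletal muscle actin, read 11.52, 12.44, 12.72, 11.88 and 10.51 in muscle and 6.71 to 6.90 in marrow (5.05 ± 0.52). Muscle array 5 was the lowest for Acta1 and also for Tnnc2, fast troponin C (9.79 against 10.73 to 11.86 on the other muscle arrays, difference 2.86 ± 0.56). Ckm, muscle creatine kinase, read 8.78, 6.71, 6.71, 6.71 and 8.21 in muscle and 6.95 to 8.48 in marrow, so it was not higher in muscle (-0.48 ± 0.49, adjusted p = 0.45). Myl2 (-2.90 ± 0.35) and Tnnc1 (-1.78 ± 0.44), both of slow fibre and heart, and Cox6a2 (-1.97 ± 0.34) were lower in muscle MP.

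**Figure D3:**
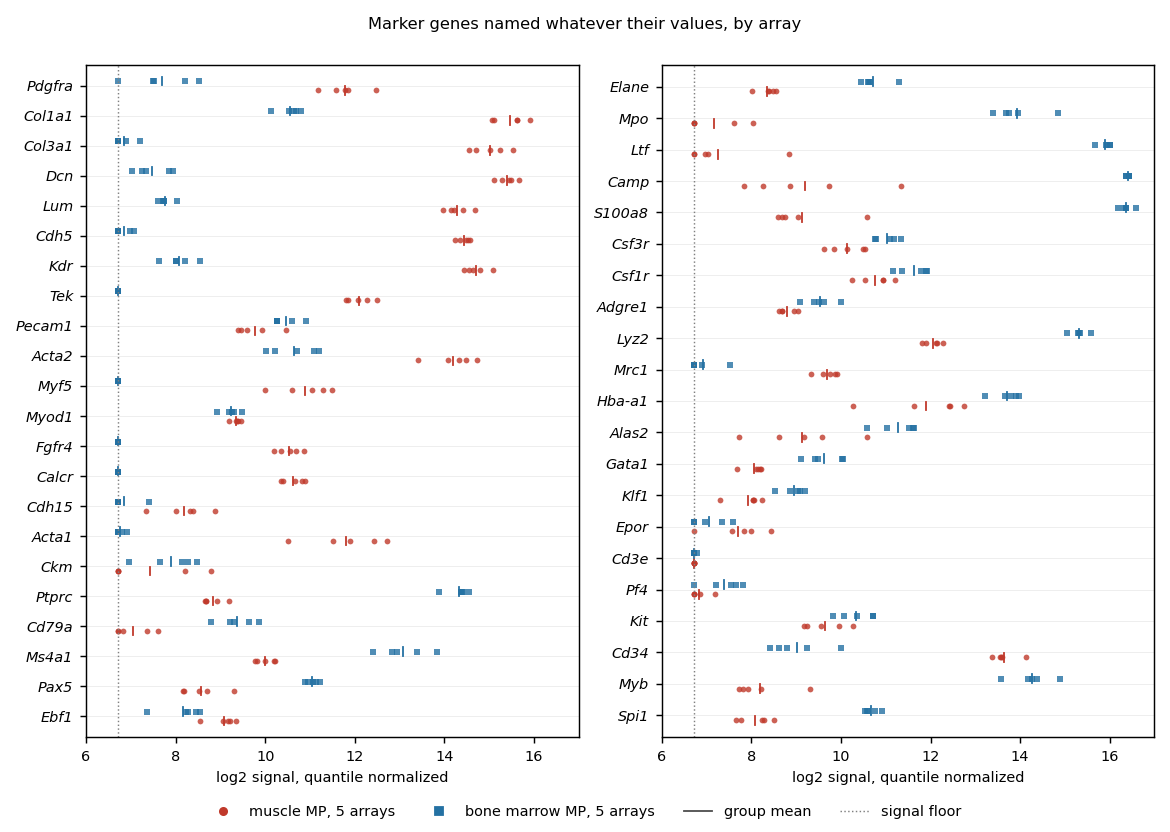
Log2 signal (horizontal axis, quantile normalized) of marker genes named whatever their values, by array, with muscle MP as circles, bone marrow MP as squares, group means as short bars and the floor as a dotted line. Fibroblast, endothelial and myogenic genes lie to the right in muscle MP except Pecam1 and Ckm, with Myod1 nearly level, and blood cell genes lie to the right in marrow except Mrc1, Ebf1, Cd34, Epor and Cd3e. Cd3e is at or near the floor, 6.71, in both groups.

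Neutrophil and granulocyte markers had the lowest list median, -5.18, with 39 of 40 lower in muscle MP and 0 higher. Their summed signal was 31655 to 43779 units on the muscle arrays and at least 879448 on every marrow array, a 26.1-fold difference of the means. On muscle array 2, the highest of the 5, Camp read 11.33 (7.84 to 9.73 on the other muscle arrays), S100a9 read 9.91 (7.51 to 8.33) and Ngp read 11.14 (6.71 to 8.94). Without that array 39 members stayed lower and the median was -5.23, so the list's count was as large without it. Elane, neutrophil elastase, read 8.01 to 8.55 against 10.45 to 11.29 (-2.36 ± 0.23), while the primary granule gene Mpo differed by -6.77 ± 0.36. Csf3r, the receptor for granulocyte colony-stimulating factor, was lower by all 3 of its probe sets. The brightest differed by -0.91 ± 0.32 (adjusted p = 0.0240), a call lost without muscle array 3 or 4 or marrow array 1 (-0.84 to -0.78), and the others by -5.46 ± 0.32 and -2.62 ± 0.23.

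Eosinophil, basophil and mast cell markers were lower for 11 of 16 and higher for 2, with a median of -1.78. Prg2, the major basic protein of eosinophil granules, read 13.14, 12.24, 12.52, 11.88 and 12.97 in marrow and was at the floor on every muscle array, so it was lower by 5.84 or more (SE 0.54). Epx, eosinophil peroxidase, likewise was lower by 4.09 or more (SE 0.30). Hdc, which makes histamine, read 13.93 to 14.11 in marrow and 8.26 to 9.17 in muscle (-5.36 ± 0.21). The 2 members higher in muscle were Gata2 (1.27 ± 0.29), a transcription factor that endothelium shares, and Cma1, a chymase of connective tissue mast cells (1.40 ± 0.56). Cma1 did not pass when any of muscle arrays 1 to 4 or marrow arrays 1 to 4 was left out (1.21 to 1.49), nor with other floors, a pseudocount or no filter (1.10 to 1.40).

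Monocyte and macrophage markers went both ways, with 28 of 52 lower and 12 higher, and a median of -0.80. Tyrobp, an adaptor of myeloid receptors, read 8.93 to 10.05 in muscle and 14.52 to 15.07 in marrow (-5.41 ± 0.57), and Mpeg1, a pore-forming protein of macrophages, differed by -4.95 ± 0.37. Lyz2, lysozyme, read 11.81 to 12.27 against 15.06 to 15.58 (-3.27 ± 0.74). Csf1r, the receptor of the monocyte lineage, read 10.93, 10.94, 10.24, 11.20 and 10.53 in muscle and 11.80, 11.17, 11.91, 11.36 and 11.91 in marrow, where 1 muscle value overlapped the marrow range (-0.86 ± 0.24, adjusted p = 0.00597). Adgre1, the F4/80 antigen, was also slightly lower (-0.73 ± 0.19), though with the floor at the 10th percentile it did not pass (adjusted p = 0.0706).

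Of genes known from tissue-resident macrophages, some were among the 12 higher members and others did not pass. Mrc1, the mannose receptor, read 9.60, 9.87, 9.76, 9.92 and 9.32 in muscle and 6.71, 6.71, 6.90, 6.71 and 7.53 in marrow (2.78 ± 0.20, adjusted p = 7.3e-11). The complement gene C1qa (2.72 ± 0.27), the folate receptor gene Folr2 (1.74 ± 0.39), C1qc (1.25 ± 0.20) and Mertk, a receptor for dying cells (1.37 ± 0.22), were higher too. C1qb, of the same complex as C1qa (-0.29, adjusted p = 0.474), Cx3cr1 (0.17) and Cbr2 (0.45) did not pass. Apoe, which fibroblasts and Schwann cells also make, was higher by 4.80 ± 0.39. Ctsl, a lysosomal protease, was higher by 2.16 ± 0.22 and Cd83 by 1.10 ± 0.35, and the other higher members were Lgmn, Vcam1, Mmp13 and Axl.

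B lineage and immunoglobulin genes were lower for 34 of 43 and higher for 3, with a median of -2.46. Ms4a1, the CD20 antigen, read 12.41, 12.82, 13.38, 13.84 and 12.95 in marrow and 9.76 to 10.22 in muscle (-3.08 ± 0.23). Cd79a, a chain of the B cell receptor, differed by -2.32 ± 0.28, Pax5, the B lineage transcription factor, by -2.48 ± 0.31, and the receptor gene Cd72 differed by -4.67 ± 0.31. The 3 higher members are known outside B cells: Prdm1 (2.03 ± 0.25), a transcription factor, the heparan sulphate proteoglycan gene Sdc1 (0.67 ± 0.23, and 0.57 with the call lost without marrow array 3; adjusted p = 0.0920 with the floor at the 10th percentile) and Ebf1 (0.90 ± 0.23), a transcription factor of B cells and of fat and mural cells. Ebf1 read 9.17, 9.05, 9.22, 8.55 and 9.36 in muscle and 8.27, 7.35, 8.22, 8.55 and 8.44 in marrow, and the groups met at 8.55.

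T and NK cell markers were mostly dim, and 12 of 38 did not leave the floor in muscle. Of the 38, 15 were lower in muscle MP and 3 higher, with a median of -0.48. Il18rap, a cytokine receptor chain (-4.01 ± 0.32), the chemokine gene Ccl5 (-3.57 ± 0.62) and Gzmb, a granzyme (-2.91 ± 0.42), were lower. Cd3e, the defining T cell receptor subunit, never left the floor in muscle, and of the marrow arrays only array 2 read above it, at 6.78. Thy1, which is also a fibroblast antigen, read 10.41, 9.62, 9.98, 10.49 and 9.65 in muscle against the floor in marrow (at least 3.32 ± 0.34), and Gata3 (1.47 ± 0.21) and Cd247 (0.98 ± 0.31) were higher as well. Neither passed with the floor at the 40th percentile (0.31 and 0.22), and the other Cd247 probe set did not pass (0.13 ± 0.19).

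Erythroid markers were lower for 18 of 37 and higher for 6, with a median of -0.46. Hba-a1, alpha globin, read 12.74, 12.42, 12.43, 11.64 and 10.26 in muscle and 13.67, 13.97, 13.79, 13.91 and 13.21 in marrow (-1.81 ± 0.61, adjusted p = 0.0182), and without muscle array 5 it did not pass (-1.40, adjusted p = 0.0685). Alas2, the red cell enzyme of haem synthesis, read 10.59, 9.58, 9.17, 8.63 and 7.73 in muscle and 10.58 to 11.63 in marrow (-2.13 ± 0.66). Both genes were lowest on muscle array 5, and muscle array 1 overlapped the marrow range for Alas2. The transcription factors Gata1 (-1.55 ± 0.23) and Klf1 (-1.01 ± 0.23) were lower without overlap, though the Gata1 probe set carries a suffix for shared sequence and the other, dim set did not pass (-0.06 ± 0.26), and Nfe2, shared with megakaryocytes, was the largest fall of the list (-6.23 ± 0.29). Epor, the erythropoietin receptor, did not pass (0.65 ± 0.36, adjusted p = 0.15). The 6 higher members were Mgst3 (2.30 ± 0.46), Prdx2 (1.69 ± 0.23), Nfe2l1 (1.45 ± 0.18), Tal1 (1.01 ± 0.28), Urod (0.84 ± 0.20) and Alad (0.79 ± 0.25), which are expressed outside red cells too.

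Megakaryocyte and platelet markers split evenly, with 6 of 16 higher and 5 lower. The higher ones included Vwf, the clotting factor carrier that endothelium makes (5.22 ± 0.44), Gng11 (4.03 ± 0.26) and the thrombin receptor gene F2r (2.20 ± 0.33). Gp9, a platelet adhesion receptor chain (-1.73 ± 0.44), and the thromboxane synthase gene Tbxas1 (-1.04 ± 0.15) were lower. Pf4, a platelet chemokine, was lower (-0.55 ± 0.20) with overlapping groups, and not when muscle array 1, 4 or 5 or marrow array 1, 3 or 5 was left out (-0.52 to -0.45) or without further normalization (-0.47). The Pf4 call was also lost with the floor at the 10th percentile (adjusted p = 0.0800) and a pseudocount (adjusted p = 0.0648).

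Pan-leukocyte genes, shared by nearly all white blood cells, were lower for 44 of 46 and higher for 0, with a median of -3.21. Ptprc, the CD45 antigen, read 8.93, 8.68, 8.68, 9.19 and 8.65 in muscle and 14.41, 13.88, 14.38, 14.40 and 14.55 in marrow (-5.50 ± 0.50). Every muscle array remained above the floor. Coro1a, a leukocyte actin regulator, differed by -5.58 ± 0.54. The list's summed signal was 32657 to 43015 units in muscle and 389037 to 462579 in marrow.

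MHC class II genes were lower for 6 of 10 and higher for 0 (median -1.06), led by H2-Ob (-1.91 ± 0.38) and including the invariant chain gene Cd74 (-1.21 ± 0.18). Of class I and peptide loading genes 4 of 17 were lower (23.5%, near the 25.4% of all genes) and 1 higher. H2-Q10 differed by -3.68 ± 0.29, but its probe set carries a suffix for sequence shared with related genes.

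Genes of blood stem and progenitor cells split between 17 of 39 higher and 12 lower. The higher ones included Cdkn1c, a cell cycle inhibitor (6.63 ± 0.36), Tek, Cd34, a surface antigen of progenitors and capillaries (4.62 ± 0.25), Ndn (at least 4.62 ± 0.28) and Procr (4.03 ± 0.24), of which several are also expressed by endothelium or fibroblasts, but also Mycn (2.08), Mllt3 (1.95) and Bmi1 (1.08). Cd34 read 13.59, 13.55, 14.14, 13.57 and 13.37 in muscle against 8.42 to 10.01. Blood transcription factors went both ways, with Gata2 (1.27 ± 0.29) and Tal1 among the higher members and others among the lower ones. Myb, needed for definitive blood formation, read 13.57 to 14.89 in marrow and 7.82, 9.31, 7.91, 7.73 and 8.21 in muscle (-6.06 ± 0.45), Gfi1 was lower by 5.41 or more (SE 0.26), and Spi1, which encodes PU.1, differed by -2.59 ± 0.29. The list median, 0.24, was -0.04 when a gene's probe sets were averaged.

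Genes of cell division were lower in muscle MP. Of 47 mitosis genes, 40 were lower and 1, the tubulin gene Tubb5, was higher (1.00 ± 0.19), with a median of -1.24. That Tubb5 probe set carries a suffix for shared or less specific probes, as does the other Tubb5 set (0.93 ± 0.22). Mki67, the proliferation antigen, read 8.84, 8.11, 9.05, 8.76 and 6.94 in muscle and 11.47, 10.73, 11.59, 11.51 and 11.75 in marrow (-3.07 ± 0.42). Cks2, a subunit of cyclin-dependent kinases, differed by -3.01 ± 0.21 and Aurka, a mitotic kinase, by -2.62 ± 0.17.

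DNA replication genes were lower for 36 of 51 and higher for 3, with a median of -0.88. Gmnn, geminin (-2.26 ± 0.25), Rrm2, which makes deoxynucleotides (-2.26 ± 0.36), and Top2a (-2.05 ± 0.27) were among the lower ones. The higher ones were Pola2 (1.42 ± 0.24), whose other probe set went the opposite way, Pold2 (1.22 ± 0.43) and Orc2 (0.96 ± 0.35). The Pold2 call was lost without marrow array 3 or 4 (0.99 and 1.04), and that of Orc2 without muscle array 4 or 5 or marrow array 1, 2 or 3 (0.78 to 0.89) or with the floor at the 40th percentile (0.25). With no filter the Orc2 call was lost as well (adjusted p = 0.0549). Cell cycle inhibitors and quiescence genes were higher for 17 of 35 and lower for 8. Gas1, a growth arrest gene, read 12.83 to 14.34 in muscle and 8.04, 6.71, 6.71, 6.71 and 6.71 in marrow (6.67 ± 0.29). Cdkn2d (-1.52 ± 0.20) and the pocket protein genes Rb1 (-0.85 ± 0.23), Rbl1 (-0.90 ± 0.24) and Rbl2 (-0.91 ± 0.23) were lower.

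Immediate early and stress genes, which tissue handling is known to induce, were higher in muscle MP for 34 of 57 and lower for 8, with a median of 1.20. Ccn1, a matricellular early gene, read 12.53 to 13.70 against the floor (at least 6.30 ± 0.24), and the cytokine gene Il6 read 10.93, 11.05, 11.86, 11.66 and 11.56 against the floor (at least 4.70 ± 0.29). Socs3, a feedback inhibitor of cytokine signals, read 14.77 to 15.40 in muscle and 10.54 to 11.07 in marrow (4.27 ± 0.17). Cebpb (-1.48 ± 0.25) and Gadd45a (-1.47 ± 0.24) were the largest falls. The list's summed signal was 346564 to 491193 units in marrow and 2.53-fold higher in muscle, and the part of tissue handling in the gene groups above was not tested.

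Interferon-stimulated genes went both ways (13 of 37 higher, 8 lower, median 0.29). The GTPase gene Iigp1 (4.83 ± 0.32) and Gbp2 (2.67 ± 0.36) were higher, and Mx1 was lower by 2.06 or more (SE 0.31). Complement genes were higher for 11 of 22 and lower for 6. Serping1, the inhibitor of the first complement component, was higher by 5.13 ± 0.37 and Cfp, properdin of neutrophils and monocytes, differed by -3.84 ± 0.28.

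Of 22 chemokine ligands 8 were higher in muscle MP and 5 lower, and of 13 receptors 1, the scavenger Ackr3, was higher and 6 lower. The lower ligands included Ccl5 (-3.57), Ccl6 (-2.94) and Ccl9 (-1.81), all known from leukocytes. Cxcl12, the ligand that holds stem cells in their niche, read 13.78, 12.54, 13.30, 13.08 and 12.97 in muscle and 6.71, 6.71, 8.07, 7.79 and 7.26 in marrow (5.83 ± 0.29). Its receptor gene Cxcr4 read 8.27 to 9.38 in muscle and 10.82 to 11.87 in marrow (-2.45 ± 0.29). Likewise Ccl2, a monocyte attractant, was higher (3.80 ± 0.34) and its receptor gene Ccr2 lower (-3.66 ± 0.35). Among receptors of neutrophils and monocytes, Ccr1 fell (-4.54 ± 0.39), and Cxcr2 was lower by 2.55 or more (SE 0.22).

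Other ligand and receptor pairs were arranged in several ways. Kitl was higher in muscle by at least 7.14 ± 0.23, with 13.65 to 14.14 against the floor, while Kit, its receptor, read 10.26, 9.95, 9.56, 9.24 and 9.18 in muscle and 10.71, 10.36, 10.06, 9.82 and 10.71 in marrow and did not pass (-0.69 ± 0.29, adjusted p = 0.056). Csf1 was higher (1.07 ± 0.24) and Csf1r lower (-0.86 ± 0.24), as for the chemokine pairs above. Pdgfa (1.97 ± 0.18) and Pdgfra were both higher, and so were Gas6 (4.02 ± 0.24) and Axl (at least 0.77 ± 0.18). Vcam1 was higher by its brightest probe set (1.16 ± 0.42). The call was lost without muscle array 2 or 4 or marrow array 3 or 4 (0.86 to 1.11). It was also lost with median scaling (0.99) and with no filter (1.16). The other Vcam1 probe sets did not pass (0.84 ± 0.44 and 0.22 ± 0.33). Its integrin chain gene Itga4 was lower (-1.87 ± 0.30). Icam1 did not pass (0.67 ± 0.32, adjusted p = 0.0955), and Itgb2, which pairs with its receptors, was lower.

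Pdgfb (-0.16 ± 0.28) and Angpt1 (-0.18 ± 0.19) did not pass, whereas their receptor genes Pdgfrb (at least 2.50 ± 0.34) and Tek were higher. Vegfa was dim in both tissues and lower in muscle (-0.84 ± 0.31), though not without muscle array 1 or 5 or marrow array 2, 3 or 4 (-0.83 to -0.69) or without further normalization (-0.72), while Kdr was higher. The Vegfa call was also lost with the floor at the 10th percentile (adjusted p = 0.173), a pseudocount (adjusted p = 0.0884) and no filter (adjusted p = 0.0529). Notch1 was higher (1.70 ± 0.28), and Cd47, a signal against uptake by macrophages, read 15.20 ± 0.24 against 15.04 ± 0.23 and did not pass (0.15 ± 0.16). Il7r was lower (-3.84 ± 0.39). Met, Itga5, Il7, Cxcl13, Cxcr5, Jag1, Thbs1, Tnfsf13b and Tnfrsf13c were not analysed here.

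**Figure D4:**
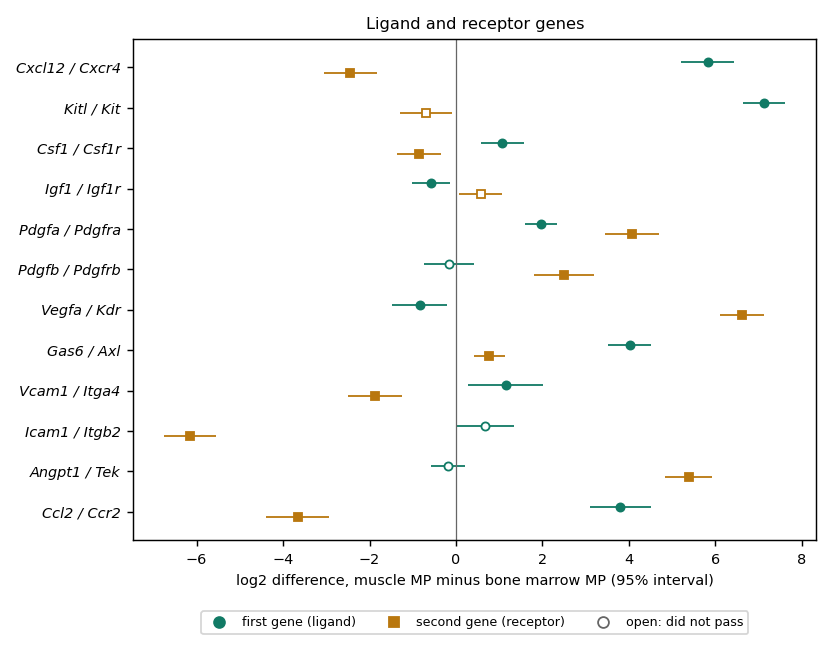
Log2 difference between muscle MP and bone marrow MP (horizontal axis) with its 95% interval for 12 ligand genes (circles) and their receptor genes (squares), with open symbols where the test was not passed. The ligand lies to the right and the receptor to the left of 0 with both passing for Cxcl12 with Cxcr4 (5.83 and -2.45), Ccl2 with Ccr2 (3.80 and -3.66), Csf1 with Csf1r (1.07 and -0.86) and Vcam1 with Itga4 (1.16 and -1.87), while both lie to the right for Gas6 with Axl (4.02 and 0.77). Vcam1 is shown by its brightest probe set, and its other sets did not pass.

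Growth factors and their receptors (FGF, PDGF, IGF, VEGF, HGF and EGF systems) were higher for 27 of 47 and lower for 6, with a median of 1.08. Flt1, the decoy receptor for vascular endothelial growth factor, was higher by 6.43 ± 0.25 and Igfbp6 by 5.06 ± 0.36. Genes of the TGF-beta and BMP pathways were higher for 22 of 45 and lower for 5 (median 0.70). Fstl1, a secreted BMP inhibitor, read 13.69 to 15.23 in muscle and 7.51 to 8.41 in marrow (6.39 ± 0.32). The ligands Bmp6 (4.63 ± 0.24) and Tgfb2 (4.59 ± 0.20) were higher, and Inhba, the activin subunit, was lower (-3.0 ± 0.33).

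Wnt pathway genes were higher for 14 of 35 and lower for 3, with Ryk, a Wnt receptor, at 3.77 ± 0.39 and Sfrp4, a secreted Wnt inhibitor, at 2.81 ± 0.30. Notch pathway genes were higher for 9 of 25 and lower for 5. Numb, a Notch inhibitor, was lower (-1.84 ± 0.21), as was Notch2 (-1.15 ± 0.22), while Notch4 of endothelium (at least 3.21 ± 0.37) and Dll1 (3.14 ± 0.40) were higher. Among ephrin, semaphorin and cadherin genes 16 of 37 were higher and 4 lower. Efnb2, an arterial ephrin, was higher by 5.70 ± 0.37, and the lower ones were the leukocyte semaphorin genes Sema4a (-3.74 ± 0.38) and Sema4d (-3.42 ± 0.19), with Sema4f and Ephb6. Ephb6 was lower (-0.63 ± 0.19) by a probe set with a suffix for less specific probes, not without further normalization (-0.48), and higher by its other set (1.14 ± 0.29).

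Matrix proteases divided by family member. Of 30 proteases and inhibitors, 14 were higher and 5 lower, the latter being Mmp9, Mmp8, Adam8 (-6.07 ± 0.40), Plaur (-3.05 ± 0.24) and Plau (-0.82 ± 0.30). The Plau call was lost without muscle array 1, 4 or 5 or marrow array 1, 2 or 5 (-0.79 to -0.74) and without further normalization (-0.68). Plat, tissue plasminogen activator, read 12.70 to 13.22 in muscle and 6.71 to 7.37 in marrow (6.03 ± 0.18), and Ctsk, a collagen-degrading cathepsin, was higher by 4.81 ± 0.36. The summed signal of the list overlapped between the tissues, at 92007 to 117986 units in muscle and 75055 to 118397 in marrow.

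Ribosomal protein genes had a median of 0.01, and 2 of 33 were higher, Rpl22 (1.21 ± 0.26) and Rpl41 (0.88 ± 0.15). A second, dimmer Rpl22 probe set was lower (-0.85 ± 0.24). Rpl41 did not pass without further normalization (0.44) or with median scaling (0.26). The list median was -0.16 without further normalization and -0.33 with median scaling. Oxidative phosphorylation genes were higher for 16 of 62 (25.8%, near the 23.6% of all genes) and lower for 4 (6.45% against 25.4%). Their median was 0.20, with the largest rise in Ndufa5, a subunit of respiratory complex I (2.29 ± 0.19). Glycolysis enzymes were lower for 6 of 21 (28.6%, near the 25.4% of all genes) and higher for 3 (14.3% against 23.6%). The glucose transporter gene Slc2a3 fell most (-4.32 ± 0.27), followed by Hk2 (-1.79 ± 0.23) and Pkm (-1.50 ± 0.30), while the muscle isoform gene Pfkm (1.73 ± 0.24) was higher, with Eno2 (0.74 ± 0.23) and Eno3 (0.85 ± 0.30). The Eno2 call was lost with the floor at the 40th percentile (0.36), and the Eno3 call was lost without muscle array 1 or 5 or marrow array 1 (0.75 to 0.79).

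Antioxidant and detoxifying enzymes were higher for 25 of 55 and lower for 9. Fmo1, a flavin monooxygenase, read 13.73 to 14.07 in muscle and 7.04 to 7.55 in marrow (6.71 ± 0.24), and Adh1, which oxidises alcohols and retinol, was higher by at least 6.53 ± 0.28. Gsr, glutathione reductase, was lower (-4.12 ± 0.31). Adipocyte markers were evenly split (5 of 23 each way, 21.7%, near the 23.6% and 25.4% of all genes). Their median of -0.05 was 0.01 without further normalization and 0.07 over a gene's probe sets. Lpl, lipoprotein lipase (5.01 ± 0.32), Cd36 (at least 4.60 ± 0.16) and Pparg (at least 3.71 ± 0.17) rose and Dgat1, which makes triglyceride, fell (-3.54 ± 0.28). Homeobox genes were higher for 22 of 49 and lower for 6, with Hoxa7 at 3.82 ± 0.33 and the chromatin organiser gene Satb1 at -2.50 ± 0.30.

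Several genes were read by probe sets that went opposite ways. Of 1508 genes with more than 1 probe set, 380 had all sets called in the same direction and 35 had sets called in both. Mbp read 12.74, 12.24, 12.40, 12.50 and 11.51 in muscle and 6.76 to 7.44 in marrow by a probe set higher in muscle (5.14 ± 0.44). By the other Mbp probe set it read 7.96 to 8.72 in muscle and 11.80 to 12.12 in marrow (-3.56 ± 0.23). Both tissues thus gave a high signal for the gene, each on a different probe set without overlap. The Mbp locus is known to give, besides myelin basic protein, the longer golli transcripts of blood cells, and which transcript each probe set reads was not tested.

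Igf1, the growth factor, differed by at least 4.27 ± 0.21 on a probe set at the floor on all marrow arrays. That set carries a suffix for shared or less specific probes. The brighter set, without such a suffix, was slightly lower in muscle (-0.57 ± 0.21). The latter call was lost without muscle array 3, 4 or 5 or marrow array 1, 4 or 5 (-0.57 to -0.50), and without further normalization (-0.45). Il6st, the shared receptor chain of the interleukin-6 family, differed by 4.88 ± 0.30 and -0.48 ± 0.19. Spib, a transcription factor of B cells, differed by -4.32 ± 0.41 and, on a set with a shared-sequence suffix, by 0.93 ± 0.28. For Aqp1, among the largest rises, a dim second set with such a suffix gave -0.88 ± 0.27. Dimmer second sets of F2r (-0.68 ± 0.19) and Urod (-0.95 ± 0.32) were called lower, against the brightest set of each.

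The tissue difference was then set beside the same difference between the SP arrays. Of 10310 probe sets, 1912 (18.5%) had a tissue difference of another size in MP than in SP by the interaction contrast, and 1493 of these were MP calls. The MP difference was the larger in size for 1291 of the 1912 and the SP difference for 621. Among the 1174 of them called in SP, the MP difference was larger for 569 and the SP difference for 605. Of the 4795 MP calls, 55.1% were also called with the same sign in SP, which is 66.9% of the SP calls.

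The satellite cell genes Myf5, Fgfr4 and Calcr differed more in MP than in SP. The MP difference exceeded the SP difference by 3.39 for Myf5, by 3.74 for Fgfr4 and by 3.59 for Calcr, with adjusted p-values of 1.3e-06, 1.5e-10 and 4.5e-09. Myf5 was also called in SP (0.79, adjusted p = 0.0197), whereas Fgfr4 (0.08, adjusted p = 0.711) and Calcr (0.33, adjusted p = 0.171) did not pass there. Mrc1 (SP difference -0.28, interaction 3.06) and C1qa (0.13, interaction 2.59) likewise differed more in MP, as did the eosinophil genes Epx (-0.66, interaction -3.43) and Prg2 (-1.37, interaction -4.47). C1qa, Epx and Prg2 were named for their MP difference, which favours a larger difference in MP than in SP. Acta2 differed less in MP than in SP, with 3.56 in MP and 6.88 in SP (interaction -3.32, adjusted p = 3.7e-05). Thy1 had opposite signs, at least 3.32 in MP and -2.33 in SP (interaction 5.65), and so had Numb (-1.84 and 1.13) and the brighter probe set of Rpl22 (1.21 and -1.34). The dimmer Rpl22 set was lower in MP (-0.85) and its contrast with SP did not pass. Kitl (at least 7.14 and 6.92), Meox2 (6.76 and 6.92) and Ackr3 (7.04 and 7.13) had differences in both populations whose contrast did not pass. The MP difference of Kitl is a lower bound, so its contrast cannot show that the 2 differences are equal.

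**Figure D5:**
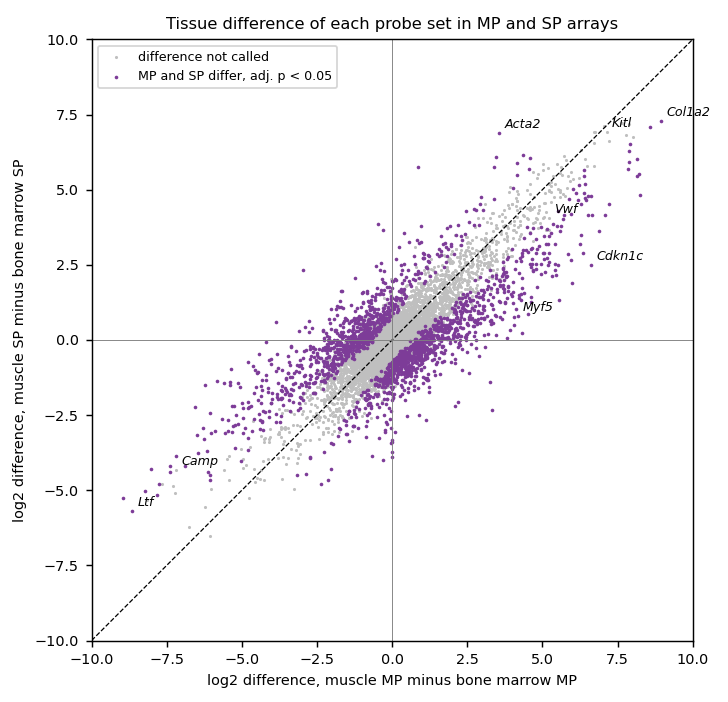
Tissue difference of each of 10310 probe sets in MP arrays (horizontal axis, log2 muscle MP minus bone marrow MP) and in SP arrays (vertical axis, log2 muscle SP minus bone marrow SP), with probe sets whose 2 differences differ at an adjusted p under 0.05 in purple and the dashed line marking equal differences. Myf5 lies far to the right at an SP difference of 0.79, Acta2 lies above the line, and Kitl lies close to it. The MP differences of Myf5 and Kitl are lower bounds.

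A missed threshold was not read as equality. Of 5515 probe sets that were not called, 618 had a 95% interval within 0.5 log2 units on either side of 0 and so were bounded to a small difference, and the other 4897 were not. The marker genes Ly6a, Hbb-bt, Lck and Itga2b were not analysed here.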

How the data were processed

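The 20 arrays are 1-colour Affymetrix arrays with 12488 probe sets, of which 66 are controls. The values are linear signal intensities in the deposited series table, scaled by the authors so that the mean with 2% trimmed at each end is 1501 on every array, as the deposited values show. Neither the labels nor the table names the software, background correction or expression summary (not given in the sources used here).

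Array medians differed by more than 0.1 log2 units, so the intensities of non-control probe sets were quantile normalized over the 20 arrays, floored at the 25th percentile (log2 6.71) and logged. Probe sets above the floor on at least 5 arrays were kept (10310 of 12422). limma 3.58.1 in R 4.3.3 fitted the means of the 4 groups, with the contrast muscle MP minus bone marrow MP, empirical Bayes variances and Benjamini-Hochberg adjustment over all probe sets at 0.05. ± after a difference is the standard error. The difference between MP and SP tissue effects was a contrast of the same fit. In lists each gene was represented by its brightest probe set, named through the platform annotation. Suffixes other than _at mark shared or less specific probes. Values at the floor are bounds. Controls were compared by exact permutation of the 252 splits. The fit was tested on simulated log2 values with changes in a small share of probe sets. That simulation left out the normalization, so it did not test that step. No 2 arrays were identical, and precision is limited by 5 arrays per group. Python 3.11.15, pandas 2.3.3, numpy 2.4.6 and matplotlib 3.10.9 were used.

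Named genes were the 20 largest rises and the 20 largest falls that passed without overlap between groups (the probe set with the largest difference per gene), up to 5 members per direction of each list described, members that went against their list, and fixed markers and ligand and receptor pairs whatever their values. The comparison, the members and the lists were chosen with earlier results of these data known. Alternatives were other normalizations, floors, filters, variance options, array sets, a replicate block and leaving out each MP array. Leaving muscle MP 2 out of the neutrophil list was chosen after seeing the data.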

Additional observations from a re-analysis of the deposited data

Results flagged for a closer look

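Among the 40 genes with the largest changes and the fixed markers, 147 groups of 5 arrays could be examined for an array far from the other 4, and 16 held one. Chance gives about 1 in 20 groups, but that rate does not hold for groups with values tied at the floor: 8 of the 16 held such values, and in 4 (Meox2, Mmp9, Cdh15 and Cd3e) the other 4 arrays all lay at the floor. Of the 16, 4 were on muscle MP array 2 and 6 on bone marrow MP array 2. Muscle array 2 was the highest of its group for Lcn2 (7.91), Ltf (8.83), Mmp9 (8.45) and S100a8 (10.59). Bone marrow array 2 was the lowest of its group for Ltf (15.66), Ptprc (13.88) and Ebf1 (7.35), and the highest for Elane (11.29), Cavin2 (7.11) and Cd3e (6.78). On other marrow arrays Meox2 (6.86) and Cdh15 (7.41) stood apart on array 3, Chil3 (16.20) on array 4 and Mrc1 (7.53) on array 5. In muscle, Gata1 was lowest on array 4 (7.68) and Klf1 on array 5 (7.30).

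The tissue difference was of another size in MP than in SP for 1912 probe sets by the interaction contrast in limma. All 20 largest rises and all 20 largest falls passed in the same direction in SP. These genes were chosen for the size of their MP difference, which favours a larger difference in MP than in SP, so the counts below describe them and support nothing. For 13 of the rises the MP difference was larger. The excess in MP was 1.67 for Col1a2, 1.50 for Sparc, 3.44 for Col4a1, 2.67 for Cavin2, 2.13 for Col3a1, 2.70 for Nrep, 1.41 for Dcn, 1.61 for Aqp1 and 1.94 for Pmp22. It was 2.18 for Timp3, 2.69 for Serpinh1, 2.95 for Peg3 and 3.25 for Postn.

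For 14 of the falls the MP difference was larger as well. The difference of the log2 differences was -3.72 for Lcn2, -2.96 for Ltf, -3.18 for Wfdc21, -2.65 for Mmp9, -2.97 for Mmp8, -3.22 for Fpr2 and -3.0 for Ifitm6. It was -3.32 for Ly6g, -2.71 for Chil1, -4.34 for Slfn4, -3.31 for Arg2, -2.69 for Pglyrp1, -3.37 for Il1rn and -2.95 for Itgb2l.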

How the results depend on the processing

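The counts of higher and lower probe sets stayed within 1.5 times of 2151 and 2644 in the 12 other settings and when each MP array was left out (2029 to 2099 higher, 2353 to 2506 lower). Without further normalization 2354 were higher and 2133 lower, so 52.5% of calls were higher in muscle against 44.9%, and median scaling gave 2006 and 2939. The count of probe sets bounded to a small difference, 618, moved to 400 with the floor at the 10th percentile, 2804 with no filter, 334 with a filter at the median, 1236 with array weights and 1193 with the 10 MP arrays alone, and the cause was not tested. Of 371 named probe sets that passed, 326 kept call and direction in every setting that gave them a value, and none of the other 45 reversed. Of 382 named, 278 had a value with the filter at the median and 364 with the floor at the 40th percentile, which by its construction shrinks dim differences (49 by over 1.5 times). The list medians of adipocyte, blood stem and ribosomal genes changed sign under a scaling or when probe sets were averaged.

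Whether same-numbered arrays share a source is not in the labels, and they were not treated as pairs, since only 4 of 5 correlations of their deviations were over 0.1 (0.257, 0.231, 0.180, 0.198 and -0.091). As a hint of a shared effect from the data, 3 of 5 muscle and 2 of 5 marrow arrays correlated best with their own number, and the second principal component (3.97% of variance) set arrays 1 and 2 of both tissues apart from arrays 3 and 4. With the replicate number as a block 2227 were higher and 2789 lower, and 2 named calls were lost, Sdc3 (-0.57, adjusted p = 0.0576) and Sdhd (-0.46, adjusted p = 0.0618).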

Other observations

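Some gene groups were looked at after their values had been seen, so they are described without a test of the group. Of 21 imprinted genes, which are expressed from 1 parental copy and include several growth regulators, 11 were higher in muscle MP and 0 lower by limma, with a median of 1.54. Over all genes 23.6% were higher and 25.4% lower, with a median of -0.10. Peg3 was higher by 7.10 ± 0.31, Cdkn1c by 6.63 ± 0.36, Sgce by 5.94 ± 0.30 and Igf2, the fetal growth factor, by 4.72 ± 0.24. Mest (at least 4.67 ± 0.30) and Ndn (at least 4.62 ± 0.28) were at the floor on all marrow arrays. Meg3, a long noncoding RNA, was higher by 2.81 ± 0.25, and Dlk1, its neighbour, did not pass (0.47 ± 0.25, adjusted p = 0.135).

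Of 14 Hippo pathway genes, which couple growth to cell contact and stretch, 10 were higher and 1 lower. The coactivator genes Wwtr1 (at least 5.28 ± 0.25) and Yap1 (4.68 ± 0.23) and the targets Ccn1 (at least 6.30 ± 0.24), Ccn2 (at least 5.11 ± 0.44) and Ankrd1 (at least 2.79 ± 0.20) were higher, and Mob1a was lower (-0.92 ± 0.18). Cell junction genes were higher for 16 of 27 and lower for 3. Tjp1, a tight junction scaffold, was higher by 6.41 ± 0.24, Cldn5, the claudin of endothelium, by at least 6.41 ± 0.29 and the gap junction gene Gja1 by 6.28 ± 0.19, while Cldn1 was lower (-1.68 ± 0.33). In SP this Cldn1 probe set was higher in muscle (1.63), and the difference between MP and SP passed (-3.31 ± 0.46).

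Among 9 caveola and lipid raft genes 4 were higher and 3 lower. The caveola coat genes Cav1 (7.88 ± 0.38), Cavin1 (5.49 ± 0.21), Cavin2 (8.20 ± 0.44) and Cavin3 (at least 6.17 ± 0.24) were higher, whereas the flotillin genes Flot1 (-0.79 ± 0.19) and Flot2 (-0.85 ± 0.21) and Pacsin1 (-1.33 ± 0.19) were lower. All 3 Schlafen genes measured were lower: Slfn4 (-6.56 ± 0.44), Slfn1 (-4.36 ± 0.38) and Slfn2 (-4.18 ± 0.40).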
